A study of Mus musculus with 18 samples.

Results

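Claudin transcripts were followed in 3 mouse pancreatic ductal adenocarcinoma lines, PD454, PD7591 and PD883. The 10 genes were Cldn1, Cldn2, Cldn3, Cldn4, Cldn6, Cldn7, Cldn9, Cldn12, Cldn18 and Cldn23, which are 10 of the 24527 gene rows of the deposited read count table, found there by their symbols. Each line was kept for 48 h with 2.5 µM ionomycin, a calcium ionophore, with TGFb at 10 ng/ml, a growth factor known to push many carcinoma cells into epithelial-mesenchymal transition, or with the solvent DMSO. Every combination of line and treatment had 2 libraries, which gave 18 libraries in 9 groups. All cells, the DMSO controls included, grew in a medium with bovine pituitary extract, dexamethasone, cholera toxin and insulin. The lines came from mice of mixed strain background, no driver allele was named in the labels, and each is a single line. Whether the 2 libraries of a group were grown as separate cultures is not stated in the labels, and their spread may be technical. P-values within lines, for line dependence and between lines measure that spread. P-values of the treatment tests over the 3 lines also take in how far the lines differ in their response. The series asked how calcium signalling compares with TGFb in moving carcinoma cells toward a partial mesenchymal state.

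Claudins are small membrane proteins that form the strands of the tight junction, the apical seal between epithelial cells. Most seal the space between cells, while some, of which claudin-2 is the best known, form channels for ions or water. Their cytoplasmic ends dock onto scaffold proteins such as ZO-1. Ductal cells carry a defined set of claudins, and many carcinomas express claudins that the tissue of origin lacks. During epithelial-mesenchymal transition, repressors of the SNAIL and ZEB families bind E-box sequences and are known to lower the transcription of several junction genes.

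Library totals ran from 17591005 to 37894692 counts. Duplicates correlated across genes at r of 0.981 to 0.993, and the chi-square between them, divided by its degrees of freedom, was 4.63 to 86.2, above counting noise in every pair. Short transcripts made up more of 4 libraries than of the others. The correlation across genes of length with a library's deviation was -0.094 for TGFb PD454 library 18, -0.179 for TGFb PD883 library 12, -0.196 for DMSO PD454 library 14 and -0.195 for DMSO PD883 library 8. None of these 4 was an ionomycin or a PD7591 library, and each had the higher library number of its group. All 8 ductal and epithelial markers had counts and exceeded 1 CPM (counts scaled to library size) in a library under each treatment. They summed to 5394 to 9703 CPM with ionomycin, 3964 to 6970 CPM with TGFb and 4907 to 7709 CPM with DMSO. These sums do not give the level of each marker. The endocrine list had 2 of 5 genes with counts, while Ins1, Ins2 and Sst were at 0 counts throughout. It summed to at most 0.1075 CPM with ionomycin, 0.0505 CPM with TGFb and 0.3004 CPM with DMSO.

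All 10 claudins passed the filter on low counts, although Cldn1, Cldn7 and Cldn9 held only 119, 231 and 187 counts over the 18 libraries. Cldn18, Cldn2, Cldn6 and Cldn12 were the deepest, with 172679, 159387, 112071 and 72141 counts, while Cldn4 held 7952, Cldn3 4867 and Cldn23 656. No stretch of 50 bases was shared between any of the 45 pairs of these genes in the annotated transcripts. Levels below are CPM scaled with composition factors (TMM), and levels of different genes are compared only after division by the length of their exons (CPM per kb).

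The 10 genes lie on 7 chromosomes of the mouse build GRCm38 (GENCODE M21), and 2 pairs are neighbours. Cldn4 (chr5:134945119-134946934, minus strand) and Cldn3 (chr5:134986214-134987472, plus strand) are 39.3 kb apart, point away from each other and have no protein-coding gene between them. Cldn6 (chr17:23679249-23682446, plus strand) and Cldn9 (chr17:23682584-23684026, minus strand) face each other with 137 bases between their ends. Cldn2 is at chrX:139800828-139811386 on the plus strand and Cldn18 at chr9:99689461-99717267 on the minus strand. Cldn12 is at chr5:5489537-5514958, Cldn23 at chr8:35824712-35826559 and Cldn1 at chr16:26356642-26371841, all on the minus strand, and Cldn7 is at chr11:69964779-69967885 on the plus strand.

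The promoter windows of 3 claudins are shown first, Cldn4 and Cldn3 because these neighbours responded in different ways, and Cldn2 because it was abundant and fell with TGFb in each line. Each is the 250 bases before the RefSeq transcription start (GRCm38.p6), written 5′ to 3′ on the strand of its gene, with matches to the searched motifs in capitals. The windows are chr5:134946935-134947184 (minus strand) for Cldn4, chr5:134985964-134986213 (plus strand) for Cldn3 and chrX:139800558-139800807 (plus strand) for Cldn2.
Cldn4: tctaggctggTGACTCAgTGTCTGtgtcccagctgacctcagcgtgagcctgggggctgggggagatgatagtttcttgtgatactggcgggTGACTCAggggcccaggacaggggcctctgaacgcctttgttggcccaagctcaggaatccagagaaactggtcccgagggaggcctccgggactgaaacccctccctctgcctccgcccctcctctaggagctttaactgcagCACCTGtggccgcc
Cldn3: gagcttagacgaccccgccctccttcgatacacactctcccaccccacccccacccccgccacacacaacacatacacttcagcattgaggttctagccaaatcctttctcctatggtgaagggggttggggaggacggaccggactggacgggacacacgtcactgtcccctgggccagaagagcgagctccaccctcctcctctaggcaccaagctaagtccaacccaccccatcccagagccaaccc
Cldn2: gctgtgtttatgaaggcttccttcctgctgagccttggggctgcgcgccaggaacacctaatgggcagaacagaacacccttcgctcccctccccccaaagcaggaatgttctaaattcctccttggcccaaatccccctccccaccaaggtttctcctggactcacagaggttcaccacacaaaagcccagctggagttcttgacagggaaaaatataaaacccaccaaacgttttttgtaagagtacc
The motifs, searched on both strands, were the E-box CAGGTG of SNAIL, SLUG and ZEB factors, the AP-1 site TGANTCA, the grainyhead-like site AACCGGT, the SMAD core CAGACA and the NFAT core TTTCCA. The Cldn4 window held 4 matches. A pair of AP-1 matches began 240 and 158 bases before the start, a SMAD match on the reverse strand began 232 bases before it, and an E-box on the reverse strand began 14 bases before it. Of 32841 mouse promoters of this length 6.75% held the AP-1 letters, 17.1% the SMAD core, 17.2% the E-box, 18.6% the NFAT core and 0.831% the grainyhead-like site. The Cldn3 and Cldn2 windows held none of the 5 motifs, which says only that these letters are not in these bases. Promoters of 8 of the 10 claudins were found, 12 in all, since Cldn18 and Cldn7 each have 2 and Cldn12 has 3. Cldn6 had 1 E-box match, Cldn7 had 2 E-box matches and 1 NFAT match in its second promoter, and Cldn18 had 1 NFAT match in its first promoter and 1 SMAD match in its second.

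Per kb of exon, each line had its own leading claudin with ionomycin and with DMSO, and Cldn6 led in all lines with TGFb. In PD454 Cldn6 made up 41.3% and 39.1% of the summed claudin CPM per kb with ionomycin, 76.1% and 74.4% with TGFb, and 54.5% and 56.3% with DMSO. In PD7591 Cldn2 made up 76.1% and 74.9% with ionomycin, at most 15.7% with TGFb, and 68.9% and 70.7% with DMSO, and with TGFb Cldn6 led there with 35.7% and 37.3%. In PD883 Cldn18 made up 56.7% in both libraries with ionomycin, 21.7% and 21.3% with TGFb, and 47.3% and 38.9% with DMSO, and with TGFb Cldn6 led there with 56.0% and 54.5%. The leaders with DMSO stood at 272 CPM per kb for Cldn6 in PD454, 157 CPM per kb for Cldn2 in PD7591 and 332 CPM per kb for Cldn18 in PD883 (means of 2 libraries). In TGFb-treated PD7591, Cldn4 made up 23.5% and 23.1%, against 0.0266% and 0.0527% in DMSO-treated PD7591. These shares describe transcripts of these 10 genes only, and the share of a gene also moves when another gene changes.

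**Figure D1:**
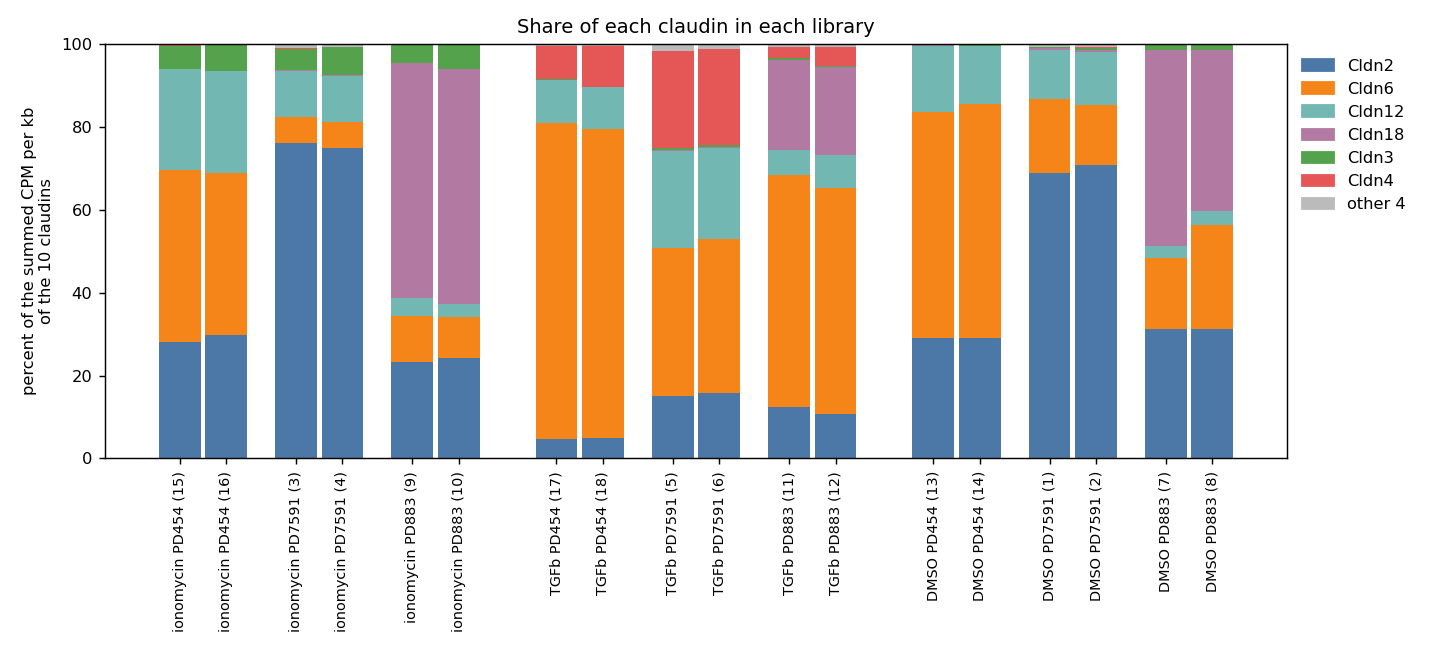
Share of each claudin in the summed CPM per kb of the 10 claudins, one bar per library, with the library number in parentheses and ionomycin, TGFb and DMSO from left to right. Cldn6 is the largest segment in all 6 TGFb libraries, Cldn2 in the 4 PD7591 libraries with ionomycin or DMSO, and Cldn18 in the 4 PD883 libraries with ionomycin or DMSO.

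Ionomycin was first set against DMSO. Cldn3, a sealing claudin, and the low-count Cldn4 were higher with ionomycin in the test over the 3 lines, and Cldn6 was lower. The other 7 claudins did not pass. These 3 of 10 calls stood beside 33.3% of the 13827 genes tested (17.2% higher and 16.1% lower, edgeR quasi-likelihood F test with the line in the model, Benjamini-Hochberg adjusted p under 0.05), a share near that of all genes. The median log2 fold change of the 10 claudins was 0.09, beside -0.034 for all genes. The immune list, 5 genes that all had counts, summed to 8.43 to 29.3 CPM with ionomycin, 2.79 to 3.74 CPM with TGFb and 3.36 to 5.99 CPM with DMSO. Only 2 of these 5 genes exceeded 1 CPM in a library with ionomycin, 1 with TGFb and 1 with DMSO. The part of such cells in these results was not tested.

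TGFb was then set against DMSO. Cldn4, Cldn23 and Cldn6 were higher with TGFb, and Cldn2, Cldn18 and Cldn3 were lower. The 6 of 10 calls stood beside 50.7% of all genes (24.3% higher and 26.5% lower). The median log2 fold change of the claudins was -0.436, beside -0.002 for all genes. The largest change among the 10, that of Cldn4, was upward. Both comparisons use the same DMSO libraries. The fibroblast list, 7 genes that all had counts, summed to 1.505 to 4.24 CPM with ionomycin, 6.97 to 101.5 CPM with TGFb and 2.02 to 5.87 CPM with DMSO. Only 1 of these 7 genes exceeded 1 CPM in a library with ionomycin, 3 with TGFb and 2 with DMSO. The acinar list, 3 of 5 genes with counts and Cpa1 and Ptf1a at 0, summed to 0.0538 to 1.105 CPM with ionomycin, 2.44 to 6.18 CPM with TGFb and 0.0436 to 1.41 CPM with DMSO. Under each treatment 1 acinar gene exceeded 1 CPM in a library. The part of such cells in these results was not tested. In bulk RNA, fewer cells with a transcript and less of it per cell cannot be told apart.

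**Figure D2:**
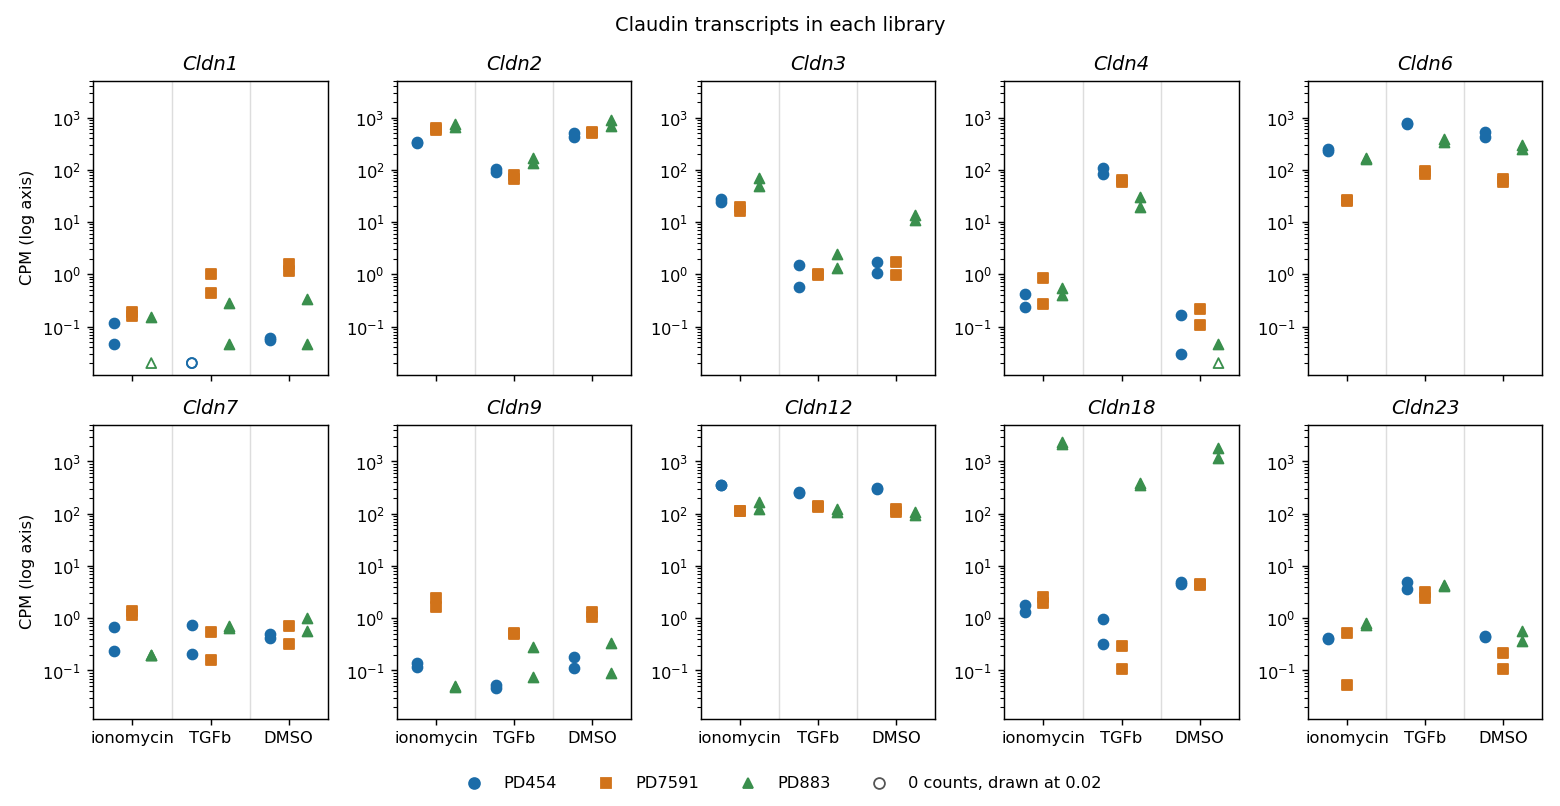
CPM of each claudin in each of the 18 libraries on a log axis, with ionomycin, TGFb and DMSO from left to right and a symbol for each line. Cldn4 libraries with TGFb sit at 19.6 to 108 CPM and those with DMSO at 0 to 0.218 CPM, and Cldn18 libraries of PD883 stand above those of the other lines under every treatment.

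Cldn4, a sealing claudin that many carcinomas express and a receptor for a Clostridium enterotoxin, was nearly absent without TGFb. With ionomycin Cldn4 had 0.4155 and 0.233 CPM in PD454, 0.847 and 0.269 CPM in PD7591, and 0.398 and 0.538 CPM in PD883. With TGFb Cldn4 had 82.8 and 108 CPM in PD454, 58.5 and 62.5 CPM in PD7591, and 19.6 and 30.1 CPM in PD883. With DMSO Cldn4 had 0.165 and 0.0300 CPM in PD454, 0.107 and 0.218 CPM in PD7591, and 0 and 0.0454 CPM in PD883. Every TGFb library and every ionomycin library lay above every DMSO library. The counts behind this were 55 over the 6 ionomycin libraries, 7885 over the 6 TGFb libraries and 12 over the 6 DMSO libraries, and the 0 counts of DMSO PD883 library 7 allow up to 0.171 CPM.

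Against DMSO the log2 fold change of Cldn4 was 2.38 ± 0.58 with ionomycin (SE, adjusted p = 0.00419, edgeR quasi-likelihood test) and 9.26 ± 0.40 with TGFb (adjusted p = 2.19e-12). The TGFb change within lines was 10.14 ± 0.49 in PD454 and 8.45 ± 0.46 in PD7591. These values rest on 4 DMSO counts in PD454 and 7 in PD7591. The SEs of the TGFb changes, taken from the F test, do not cover the error of so few counts, within or over the lines. In PD883, where the DMSO libraries held 1 count in all, 1613 counts with TGFb were 1043 times as many per library size (95% counting interval by the exact method, 187 to 41230). With ionomycin PD883 held 19 counts against that 1 count, 18.5 times as many (interval 2.94 to 769.3). The log2 fold change with ionomycin was 2.01 ± 0.87 in PD454 (adjusted p = 0.114) and 1.74 ± 0.70 in PD7591 (0.101), neither of which passed, although both did with no low-count filter (0.0324 and 0.0178). With 1 library left out these values ran from 1.00, without DMSO PD454 library 14, to 3.27, without DMSO PD454 library 13, in PD454, and from 0.65, without ionomycin PD7591 library 3, to 2.35, without DMSO PD7591 library 2, in PD7591. PD883 was the one line in which the ionomycin change passed the test (adjusted p = 0.0178), and it no longer passed without ionomycin PD883 library 10 (0.0809), DMSO PD883 library 7 (0.0890) or DMSO PD883 library 8 (0.0540). The TGFb estimate moved when single DMSO libraries were left out. It was 11.42 in PD454 without DMSO PD454 library 13 and 9.15 without DMSO PD454 library 14, 9.11 in PD7591 without DMSO PD7591 library 2, and 9.93 over the lines without line PD7591. The fitted PD883 values rest on the 1 count of DMSO PD883 library 8. Without that library, when the DMSO side is 0 and the estimate depends on the prior count, they were 12.09 with TGFb and 6.39 with ionomycin, and without DMSO PD883 library 7 they were 8.94 and 3.22, against 9.65 and 3.94 with both. Over the lines the ionomycin estimate was 2.97 without line PD7591, and the TGFb estimate was 8.68 if line PD454 was left out and 8.67 if the 4 short-transcript libraries were.

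Cldn3, the neighbour of Cldn4 and the other enterotoxin receptor of the pair, was also higher with ionomycin than with DMSO, but unlike Cldn4 it was lower with TGFb than with ionomycin. With ionomycin Cldn3 had 24.05 and 27.04 CPM in PD454, 15.95 and 19.5 CPM in PD7591, and 48.8 and 68.5 CPM in PD883. With TGFb Cldn3 had 0.581 and 1.52 CPM in PD454, 0.951 and 0.996 CPM in PD7591, and 2.42 and 1.31 CPM in PD883. With DMSO Cldn3 had 1.04 and 1.74 CPM in PD454, 0.959 and 1.70 CPM in PD7591, and 13.5 and 10.9 CPM in PD883. The ionomycin libraries lay above the DMSO libraries in each line, whereas the TGFb libraries lay below them in PD883 and overlapped them in PD454 and PD7591.

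Cldn3 rose with ionomycin by 3.20 ± 0.33 on the log2 scale over the lines (adjusted p = 1.28e-06), and by 4.14 ± 0.37, 3.71 ± 0.38 and 2.27 ± 0.32 within PD454, PD7591 and PD883. The estimate was 3.95 without line PD883. With TGFb the log2 fold change of Cldn3 over the lines was -1.48 ± 0.37 (adjusted p = 0.00281), and the call rested on PD883. Within PD883 it was -2.76 ± 0.36 (adjusted p = 2.58e-05), while PD454 gave -0.43 ± 0.44 and PD7591 gave -0.47 ± 0.47, neither past the test. Without line PD883 the value was -0.43 (adjusted p = 0.258), and with duplicates summed to 1 sample it was -1.43 (adjusted p = 0.0520). The antisense gene Wbscr25 overlaps exons of Cldn3, and the counting is not stated to use strand. Wbscr25 had 0 counts in 17 libraries and 0.0505 CPM in TGFb PD883 library 12.

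The channel-forming claudin Cldn2, which carries sodium ions and water through leaky epithelia, fell with TGFb. With ionomycin Cldn2 had 325 and 339.7 CPM in PD454, 623.5 and 584.5 CPM in PD7591, and 672 and 755 CPM in PD883. With TGFb Cldn2 had 89.6 and 102 CPM in PD454, 68.1 and 77.9 CPM in PD7591, and 168 and 132 CPM in PD883. With DMSO Cldn2 had 431 and 517 CPM in PD454, 506 and 536 CPM in PD7591, and 882.6 and 702 CPM in PD883. Every TGFb library lay below every DMSO library.

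The log2 fold change of Cldn2 with TGFb was -2.49 ± 0.16 over the lines (adjusted p = 3.89e-10), and it was -2.31 ± 0.17, -2.84 ± 0.17 and -2.40 ± 0.17 within PD454, PD7591 and PD883. With ionomycin it was -0.13 ± 0.15 (adjusted p = 0.547). Within PD454 the ionomycin libraries lay below the DMSO libraries, at -0.51 ± 0.16 on the log2 scale (adjusted p = 0.0378). That call was not made with no low-count filter (adjusted p = 0.0592), with the length offset (0.0501) or with the PD454 libraries alone (0.0758). Nor was it made without any 1 of 10 libraries, which were ionomycin PD454 15 and 16, ionomycin PD7591 3 and 4, TGFb PD454 17, TGFb PD7591 5 and 6, DMSO PD454 14, and DMSO PD7591 1 and 2, with values of -0.51 to -0.37.

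Cldn18, known from stomach and lung epithelium and reported in human pancreatic precursor lesions, set PD883 apart from the other lines. With ionomycin Cldn18 had 1.29 and 1.80 CPM in PD454, 1.98 and 2.53 CPM in PD7591, and 2197 and 2357 CPM in PD883. With TGFb Cldn18 had 0.950 and 0.323 CPM in PD454, 0.106 and 0.299 CPM in PD7591, and 396 and 352 CPM in PD883. With DMSO Cldn18 had 4.88 and 4.45 CPM in PD454, 4.53 and 4.32 CPM in PD7591, and 1789 and 1174 CPM in PD883. In each line the TGFb libraries lay below the DMSO libraries. The ionomycin libraries lay below them in PD454 and PD7591 and above them in PD883. The counts do not separate the lung and stomach isoforms, which start at different promoters.

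With TGFb the log2 fold change of Cldn18 was -2.82 ± 0.35 over the lines (adjusted p = 1.96e-06), and it was -2.89 ± 0.37 in PD454, -4.39 ± 0.46 in PD7591 and -1.99 ± 0.25 in PD883. Without the line in the model the value was -1.99 with an adjusted p of 0.507, and without line PD883 it was -3.42. The estimate in PD454 was -3.81 without TGFb PD454 library 17 and -2.25 without TGFb PD454 library 18, and the estimate in PD7591 was -5.27 without TGFb PD7591 library 6. The TGFb PD7591 libraries held 8 Cldn18 counts in all, so the SE there understates the error. With ionomycin the value over the lines was -0.49 ± 0.30 (adjusted p = 0.221). It was -1.60 ± 0.32 in PD454 (adjusted p = 0.00370), -0.98 ± 0.31 in PD7591 (adjusted p = 0.0394) and 0.62 ± 0.24 in PD883 (adjusted p = 0.0773).

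The ionomycin calls for Cldn18 within lines leaned on single libraries. The PD454 call was lost without ionomycin PD454 library 15 (-1.33, adjusted p = 0.0644). The PD7591 call was lost without any 1 of ionomycin PD454 libraries 15 and 16, ionomycin PD7591 libraries 3 and 4, and DMSO PD7591 libraries 1 and 2, with values of -1.16 to -0.82, and with limma-voom (adjusted p = 0.0856). The PD883 value passed with no low-count filter (adjusted p = 0.0105), with limma-voom (0.0278), with DESeq2 (0.0241) and with the length offset (0.0448).

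Cldn6, a claudin of fetal epithelium that most adult tissues lack, moved in opposite ways with the 2 treatments. With ionomycin Cldn6 had 246 and 232 CPM in PD454, 26.8 and 25.1 CPM in PD7591, and 166 and 159 CPM in PD883. With TGFb Cldn6 had 741 and 784 CPM in PD454, 84.05 and 95.5 CPM in PD7591, and 395 and 347.5 CPM in PD883. With DMSO Cldn6 had 418 and 518.5 CPM in PD454, 68.2 and 57.4 CPM in PD7591, and 249.5 and 293 CPM in PD883. In each line the ionomycin libraries lay below the DMSO libraries and the TGFb libraries above them.

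The log2 fold change of Cldn6 over the lines was -0.98 ± 0.11 with ionomycin (adjusted p = 2.43e-06) and 0.56 ± 0.11 with TGFb (adjusted p = 0.000259). Within PD454, PD7591 and PD883 it was -0.97 ± 0.15, -1.27 ± 0.15 and -0.74 ± 0.15 with ionomycin, and 0.70 ± 0.15, 0.52 ± 0.15 and 0.45 ± 0.15 with TGFb, each past the test. Neither change passed without the line in the model (adjusted p = 0.394 with ionomycin and 0.516 with TGFb). The TGFb call in PD7591 was lost without TGFb PD7591 library 6 (0.46), without DMSO PD7591 library 2 (0.43) and with the length offset (0.29). The TGFb call in PD883 was lost without TGFb PD883 library 11 (0.36), without DMSO PD883 library 7 (0.34), with no low-count filter (0.44) and with the PD883 libraries alone (0.45).

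Cldn9, the neighbour of Cldn6, is needed in the inner ear of mice and was near the limit of counting here. It had 0.1385 and 0.116 CPM in PD454, 2.49 and 1.61 CPM in PD7591, and 0.0497 and 0.0489 CPM in PD883 with ionomycin. With TGFb Cldn9 had 0.0528 and 0.0461 CPM in PD454, 0.528 and 0.498 CPM in PD7591, and 0.279 and 0.0757 CPM in PD883. With DMSO Cldn9 had 0.110 and 0.180 CPM in PD454, 1.07 and 1.31 CPM in PD7591, and 0.342 and 0.0909 CPM in PD883. Cldn9 was highest in PD7591, the line in which Cldn6 was lowest, under each treatment. It did not pass the test with ionomycin (log2 fold change 0.10 ± 0.50, adjusted p = 0.894) or with TGFb (-0.97 ± 0.52, adjusted p = 0.126), and without line PD883 the TGFb value was -1.30 with an adjusted p of 0.0169.

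Cldn23, a claudin of the intestinal epithelium, rose with TGFb and stayed low in every library. With ionomycin Cldn23 had 0.4155 and 0.407 CPM in PD454, 0.517 and 0.0538 CPM in PD7591, and 0.795 and 0.733 CPM in PD883. With TGFb Cldn23 had 3.69 and 5.03 CPM in PD454, 3.17 and 2.49 CPM in PD7591, and 4.14 and 4.32 CPM in PD883. With DMSO Cldn23 had 0.439 and 0.451 CPM in PD454, 0.107 and 0.218 CPM in PD7591, and 0.570 and 0.3635 CPM in PD883. All TGFb libraries lay above all DMSO libraries, and the ionomycin and DMSO libraries overlapped. The log2 fold change was 3.44 ± 0.32 with TGFb (adjusted p = 4.32e-08), and 3.28 ± 0.46, 4.04 ± 0.56 and 3.19 ± 0.47 within PD454, PD7591 and PD883. The PD7591 value was 4.69 without DMSO PD7591 library 2. With ionomycin the value was 0.45 ± 0.35 (adjusted p = 0.339).

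Cldn12, which unlike most claudins lacks the C-terminal motif that binds ZO-1, passed the test with neither treatment over the lines. With ionomycin Cldn12 had 359 and 357.5 CPM in PD454, 114 and 111 CPM in PD7591, and 165 and 125 CPM in PD883. With TGFb Cldn12 had 252 and 262 CPM in PD454, 136.5 and 138.5 CPM in PD7591, and 107.5 and 124.5 CPM in PD883. With DMSO Cldn12 had 297 and 317 CPM in PD454, 109 and 124 CPM in PD7591, and 106 and 94.4 CPM in PD883. The ionomycin libraries lay above the DMSO libraries in PD454 and PD883 and within their range in PD7591.

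The log2 fold change of Cldn12 was 0.24 ± 0.12 with ionomycin (adjusted p = 0.125) and 0.07 ± 0.12 with TGFb (adjusted p = 0.646), and neither passed the test. Within PD883 the ionomycin change of 0.54 ± 0.14 passed (adjusted p = 0.0156). It did not pass without ionomycin PD883 library 9 (0.35, adjusted p = 0.154), without DMSO PD883 library 8 (0.47, adjusted p = 0.0927) or with the PD883 libraries alone (adjusted p = 0.140).

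Cldn1 and Cldn7 held too few counts for small changes to be detectable. Cldn1, the main barrier claudin of the skin, had 1 and 2 counts in PD454, 4 and 3 in PD7591, and 3 and 0 in PD883 with ionomycin. It had 0 and 0 counts in PD454, 19 and 9 in PD7591, and 1 and 11 in PD883 with TGFb, and 1 and 2, 29 and 27, and 6 and 1 counts in the same lines with DMSO. The 0 counts of the TGFb PD454 libraries allow up to 0.158 and 0.138 CPM. Within PD7591 the ionomycin libraries lay below the DMSO libraries, at -2.91 ± 0.84 on the log2 scale (adjusted p = 0.0284). That call was lost without any 1 of ionomycin PD7591 libraries 3 and 4 and DMSO PD7591 libraries 1 and 2, with values of -3.11 to -2.71, and with DESeq2 (adjusted p = 0.0577). Over the lines the value was -1.85 ± 0.71 with ionomycin (adjusted p = 0.0518) and -0.71 ± 0.60 with TGFb (adjusted p = 0.334).

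Cldn7, which binds the adhesion protein Epcam on the sides of epithelial cells, had 0.6925 and 0.233 CPM in PD454, 1.18 and 1.40 CPM in PD7591, and 0.199 and 0.1955 CPM in PD883 with ionomycin. With TGFb Cldn7 had 0.211 and 0.738 CPM in PD454, 0.1585 and 0.548 CPM in PD7591, and 0.651 and 0.707 CPM in PD883. With DMSO Cldn7 had 0.494 and 0.4205 CPM in PD454, 0.3197 and 0.698 CPM in PD7591, and 0.570 and 0.9997 CPM in PD883. The TGFb and DMSO libraries overlapped in each line. The ionomycin libraries lay above the DMSO libraries in PD7591, below them in PD883 and on both sides of them in PD454. The TGFb log2 fold change was -0.17 ± 0.51 (adjusted p = 0.804), and the change with ionomycin did not pass the test either (0.08, adjusted p = 0.924).

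**Figure D3:**
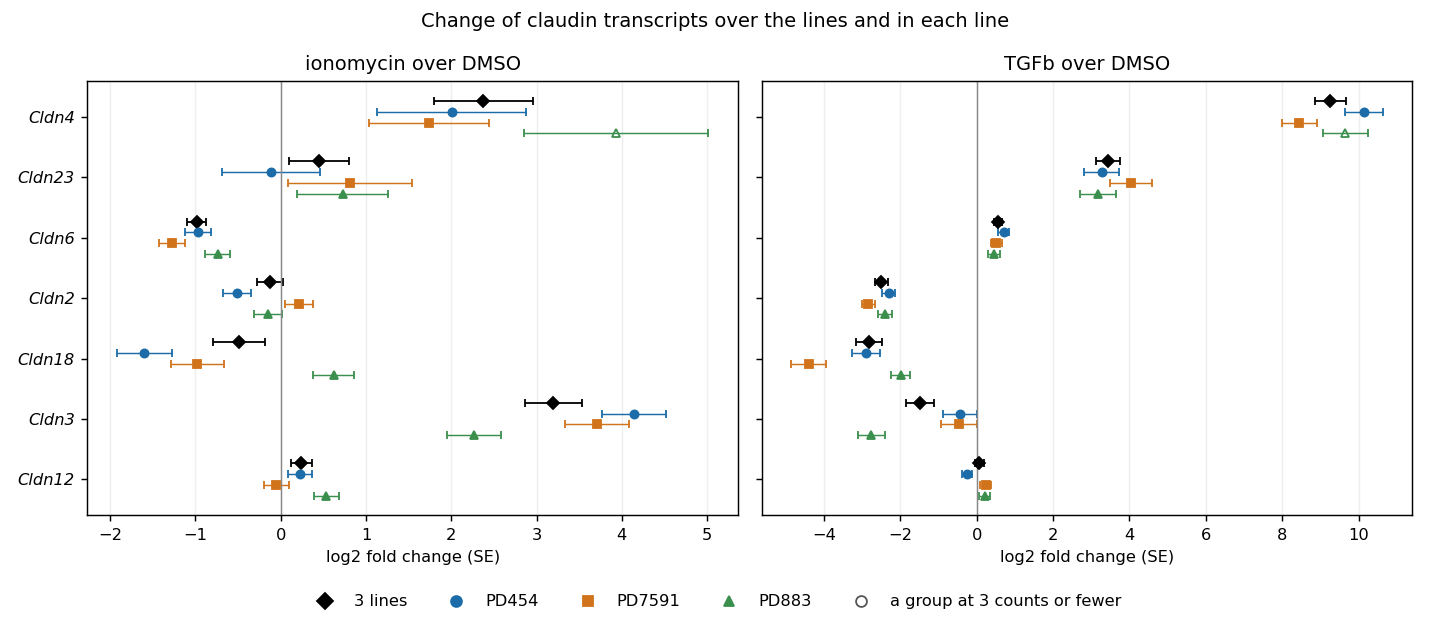
Log2 fold change with its SE for the 7 claudins with the most counts, ionomycin over DMSO on the left and TGFb over DMSO on the right, over the 3 lines (black) and in each line. Cldn4, Cldn23 and Cldn6 lie right of 0 and Cldn2 and Cldn18 left of 0 in every line with TGFb. Open symbols mark a group with 3 counts or fewer, where the fitted value depends on the prior count.

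Within single lines 4 of 10 claudins passed the test for ionomycin against DMSO in each line, beside 21.0% of all genes in PD454, 18.6% in PD7591 and 22.5% in PD883. Cldn3 was higher and Cldn6 lower in each line. The other calls were Cldn18 and Cldn2 in PD454, Cldn18 and Cldn1 in PD7591, both lower in each case, and Cldn4 and Cldn12 in PD883, both higher. With the single libraries named above left out, the count was as low as 2 in each line. For TGFb against DMSO 5 claudins passed in PD454, 5 in PD7591 and 6 in PD883, beside 31.0%, 37.8% and 38.4% of all genes. Cldn4, Cldn23 and Cldn6 were higher and Cldn2 and Cldn18 lower in each line, and Cldn3 was lower in PD883.

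Whether the effect differed between lines was asked with a joint test on 2 degrees of freedom. For ionomycin Cldn18 alone of the 10 passed (adjusted p = 0.0177), beside 2.59% of all genes. It was not called without ionomycin PD454 library 15 (adjusted p = 0.0640). Cldn3 had an adjusted p of 0.0723 in that test, and it passed with no low-count filter (9.13e-05), with DESeq2 (0.00814) and without TGFb PD883 library 11 or 12. For TGFb Cldn3 (adjusted p = 0.0297) and Cldn18 (adjusted p = 0.0454) passed, beside 5.26% of all genes. Neither passed with limma-voom (0.0696 for Cldn3 and 0.107 for Cldn18). The Cldn3 call was lost without TGFb PD7591 library 5 (0.0583), TGFb PD7591 library 6 (0.0599), TGFb PD883 library 12 (0.122) or DMSO PD883 library 7 (0.0764). The Cldn18 call was kept only without TGFb PD454 library 17, TGFb PD454 library 18 or DMSO PD883 library 7, and was lost without any 1 of the other 15, with an adjusted p of up to 0.226.

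Ionomycin was also set against TGFb directly. Cldn3, Cldn2 and Cldn18 were higher with ionomycin than with TGFb, and Cldn4, Cldn23 and Cldn6 were lower, which made 6 of 10 calls beside 62.9% of all genes (31.0% higher and 31.9% lower). The log2 fold change was 4.67 ± 0.37 for Cldn3 (adjusted p = 4.38e-09), 2.37 ± 0.16 for Cldn2 (adjusted p = 4.83e-10) and 2.33 ± 0.34 for Cldn18 (adjusted p = 1.06e-05). It was -6.89 ± 0.33 for Cldn4 (adjusted p = 5.44e-12), -2.99 ± 0.31 for Cldn23 (adjusted p = 1.28e-07) and -1.54 ± 0.11 for Cldn6 (adjusted p = 9.77e-10). Without the line in the model Cldn18 (adjusted p = 0.346) and Cldn6 (adjusted p = 0.0769) did not pass, and without line PD454 the Cldn4 value was -6.26. The neighbours Cldn3 and Cldn4 stood at opposite ends of this comparison. The median of the 10 claudins was 0.208, beside -0.037 for all genes. The low-count Cldn9 did not pass over the lines (1.07 ± 0.51, adjusted p = 0.0769, quasi-likelihood test). It passed with limma-voom (0.0228), with the length offset (0.0398) and without line PD883 (0.00120). In the quasi-likelihood tests within lines, Cldn9 (1.99, adjusted p = 0.00631) and Cldn7 (1.83, 0.0349) were higher with ionomycin in PD7591. Cldn12 was higher in PD454 (0.48, 0.0137).

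With DMSO alone 7 of 10 claudins differed between the lines (Cldn18, Cldn6, Cldn12, Cldn3, Cldn9, Cldn1 and Cldn2), beside 47.9% of all genes, and Cldn4, Cldn7 and Cldn23 did not pass. In pairs, 4 claudins passed between PD454 and PD7591, 5 between PD454 and PD883, and 6 between PD7591 and PD883, beside 21.5%, 35.3% and 34.0% of all genes. The last count was 4 without DMSO PD7591 library 1 (Cldn1 and Cldn2 lost) and 4 without DMSO PD883 library 8 (Cldn1 and Cldn9 lost). Cldn18 was lower in PD454 than in PD883 by a log2 difference of -8.32 ± 0.33 (adjusted p = 2.28e-09) and lower in PD7591 than in PD883 by -8.39 ± 0.34, while PD454 and PD7591 did not differ beyond their spread (0.07 ± 0.28, adjusted p = 0.885). Cldn3 had the same order of lines. It was lower in PD454 than in PD883 by -3.07 ± 0.37 and lower in PD7591 than in PD883 by -3.17 ± 0.38, with no call between PD454 and PD7591 (0.10 ± 0.43). For Cldn6 all 3 lines differed, with PD454 above PD7591 by 2.90 ± 0.16, PD454 above PD883 by 0.79 ± 0.15 and PD7591 below PD883 by -2.11 ± 0.15.

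Cldn12 was higher in PD454 than in PD7591 (1.40 ± 0.14) and than in PD883 (1.61 ± 0.15), and PD7591 and PD883 did not differ beyond their spread (0.22 ± 0.14, adjusted p = 0.254). Cldn2 was lower in PD454 than in PD883 (-0.74 ± 0.16) and lower in PD7591 than in PD883 (-0.61 ± 0.16), and PD454 and PD7591 did not differ beyond their spread (-0.13 ± 0.16). The Cldn2 call between lines was lost without DMSO PD883 library 7 (adjusted p = 0.0534), and the call between PD7591 and PD883 also without DMSO PD7591 library 1 (-0.58). Line and any difference in how the cultures were handled cannot be told apart.

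The other tight junction genes came from a list of 33 symbols of junction membrane proteins, scaffolds and polarity proteins, of which 31 were in the table and 30 were tested. With ionomycin 5 rose, 2 fell and 23 did not pass, with a median log2 fold change of -0.007, beside 17.2% higher, 16.1% lower and a median of -0.034 over all genes. These 7 calls became 2 without the line in the model, 13 with a mean per group, 4 with duplicates summed and 3 without line PD454. Calls over all genes moved too, from 4599 to 2152 without the line in the model and to 1858 with duplicates summed. They reached 5689 at most over the settings. With TGFb 3 rose, 17 fell and 10 did not pass, with a median of -0.823, beside 24.3% higher, 26.5% lower and a median of -0.002 over all genes. Between ionomycin and TGFb 19 were higher and 3 lower with ionomycin, with a median of 0.98, beside 31.0% higher, 31.9% lower and a median of -0.037 over all genes. Under TGFb 3 of 10 claudins rose and 3 fell, and the difference between the claudins and the list was not tested.

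Ocln, which encodes occludin, a membrane protein of the same strands, had 4.19 to 11.8 CPM with ionomycin (median 5.08), 0 to 0.422 CPM with TGFb (median 0.0990) and 0.872 to 5.42 CPM with DMSO (median 1.38), over 6 libraries each. It rose by 1.49 ± 0.37 on the log2 scale with ionomycin (adjusted p = 0.00486) and its log2 fold change with TGFb was -3.80 ± 0.51 (adjusted p = 5.20e-06), or -4.54 without line PD454 and -2.96 without line PD883. The ionomycin call was lost without line PD7591 (1.18, adjusted p = 0.0807) and without the line in the model (adjusted p = 0.156). In each line the Ocln libraries were highest with ionomycin and lowest with TGFb, without overlap. Within PD883 the ionomycin change of Ocln did not pass (0.78 ± 0.46, adjusted p = 0.253, quasi-likelihood test). Marveld3, a relative of occludin, had a log2 fold change with TGFb of -5.19 ± 0.37, and Tjp3 (ZO-3), a scaffold that binds claudins, one of -5.01 ± 0.40. The Tjp3 value was -4.12 within PD454, -4.72 within PD7591 and -7.47 within PD883. Over the lines it was -5.89 without line PD454, -4.30 without line PD883 and -5.62 without TGFb PD454 library 17. With TGFb Marveld3 held 22 counts and Tjp3 57 counts over the 6 libraries. Tjp3 had 0.139 and 0.0252 CPM in TGFb PD883, where 3 counts amount to 0.139 and 0.0757 CPM, so the size of these falls is uncertain. Neither gene passed with ionomycin (0.32 ± 0.25 for Marveld3 and -0.30 ± 0.31 for Tjp3).

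Tjp1 (ZO-1), the main scaffold of claudins, had 395 to 540.2 CPM with ionomycin, 181 to 273.5 CPM with TGFb and 326 to 681 CPM with DMSO. It fell with TGFb (-1.17 ± 0.14, adjusted p = 1.20e-06) and did not pass with ionomycin (-0.15 ± 0.14, adjusted p = 0.403), although it passed there without the 4 libraries rich in short transcripts (-0.33, adjusted p = 0.0218). The polarity scaffold Patj also fell with TGFb (-2.15 ± 0.17). F11r, which encodes the adhesion molecule JAM-A, passed with neither treatment (-0.14 ± 0.11 with ionomycin and 0.04 ± 0.11 with TGFb).

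Jam2, which encodes JAM-B, an adhesion molecule best known from endothelium, rose with both treatments, to 49.0 to 221 CPM with ionomycin and 17.1 to 36.5 CPM with TGFb, against 3.88 to 12.4 CPM with DMSO. Its log2 fold change was 3.81 ± 0.25 with ionomycin (adjusted p = 1.53e-08) and 1.501 ± 0.234 with TGFb (adjusted p = 3.07e-05). Within PD454 the TGFb change of Jam2 did not pass (0.70 ± 0.28, adjusted p = 0.0761, quasi-likelihood test). The endothelial list, 5 genes, summed to 0.282 to 2.85 CPM with ionomycin, 0.232 to 1.34 CPM with TGFb and 0.273 to 0.823 CPM with DMSO. Only 1 of these genes exceeded 1 CPM in a library with ionomycin, and none did with TGFb or DMSO. The part of this list in the Jam2 change was not tested. Cxadr, the coxsackievirus receptor of the junction, rose with ionomycin (0.55 ± 0.13) and fell with TGFb (-1.52 ± 0.13), and the ionomycin call was lost without line PD454 (0.41, adjusted p = 0.0725). Within PD7591 the ionomycin change of Cxadr did not pass (0.20 ± 0.21, adjusted p = 0.567, quasi-likelihood test).

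Over the lines the scaffold Mpdz fell with ionomycin (-0.70 ± 0.16) and rose with TGFb (0.59 ± 0.16). Mpdz rose with TGFb by 0.57 within PD454 and 1.07 within PD883, while within PD7591 it did not pass (0.06, adjusted p = 0.816, quasi-likelihood test). Its ionomycin call was lost without the line in the model (adjusted p = 0.182) and with duplicates summed (0.0659), and its TGFb call in the same settings (0.330 and 0.0537) and without line PD883 (0.0732). Jam3 was low and had a log2 fold change of -1.33 ± 0.49 with ionomycin (adjusted p = 0.0446). That call was lost in 13 of the 18 fits that left out 1 library and in 10 of the 14 other settings. Among these were limma-voom (adjusted p = 0.124), DESeq2 (0.0507) and each line left out. Without the 4 libraries rich in short transcripts the value was -0.69 (adjusted p = 0.331). Amotl1, which binds junction scaffolds, rose with TGFb (1.23 ± 0.28, adjusted p = 0.00138) and did not pass without the line in the model (adjusted p = 0.0548). Within PD7591 the TGFb change of Amotl1 did not pass (0.45 ± 0.29, adjusted p = 0.247, quasi-likelihood test). Between ionomycin and TGFb, Patj (2.69 ± 0.17), Cxadr (2.08 ± 0.14) and Marveld3 (5.51 ± 0.37) were higher with ionomycin. Mpdz (-1.29 ± 0.17), Jam3 (-1.76 ± 0.48) and Magi2 (-1.01 ± 0.37) were lower with ionomycin. The Jam3 call was lost without the line in the model (-1.65, adjusted p = 0.0548), and the Magi2 call was lost with duplicates summed (adjusted p = 0.0968), without line PD7591 (0.0958) or PD883 (0.198), without the 4 libraries rich in short transcripts (0.104), and without any 1 of ionomycin PD883 libraries 9 and 10, TGFb PD454 library 18 and TGFb PD7591 library 6 (0.0540 to 0.0677).

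**Figure D4:**
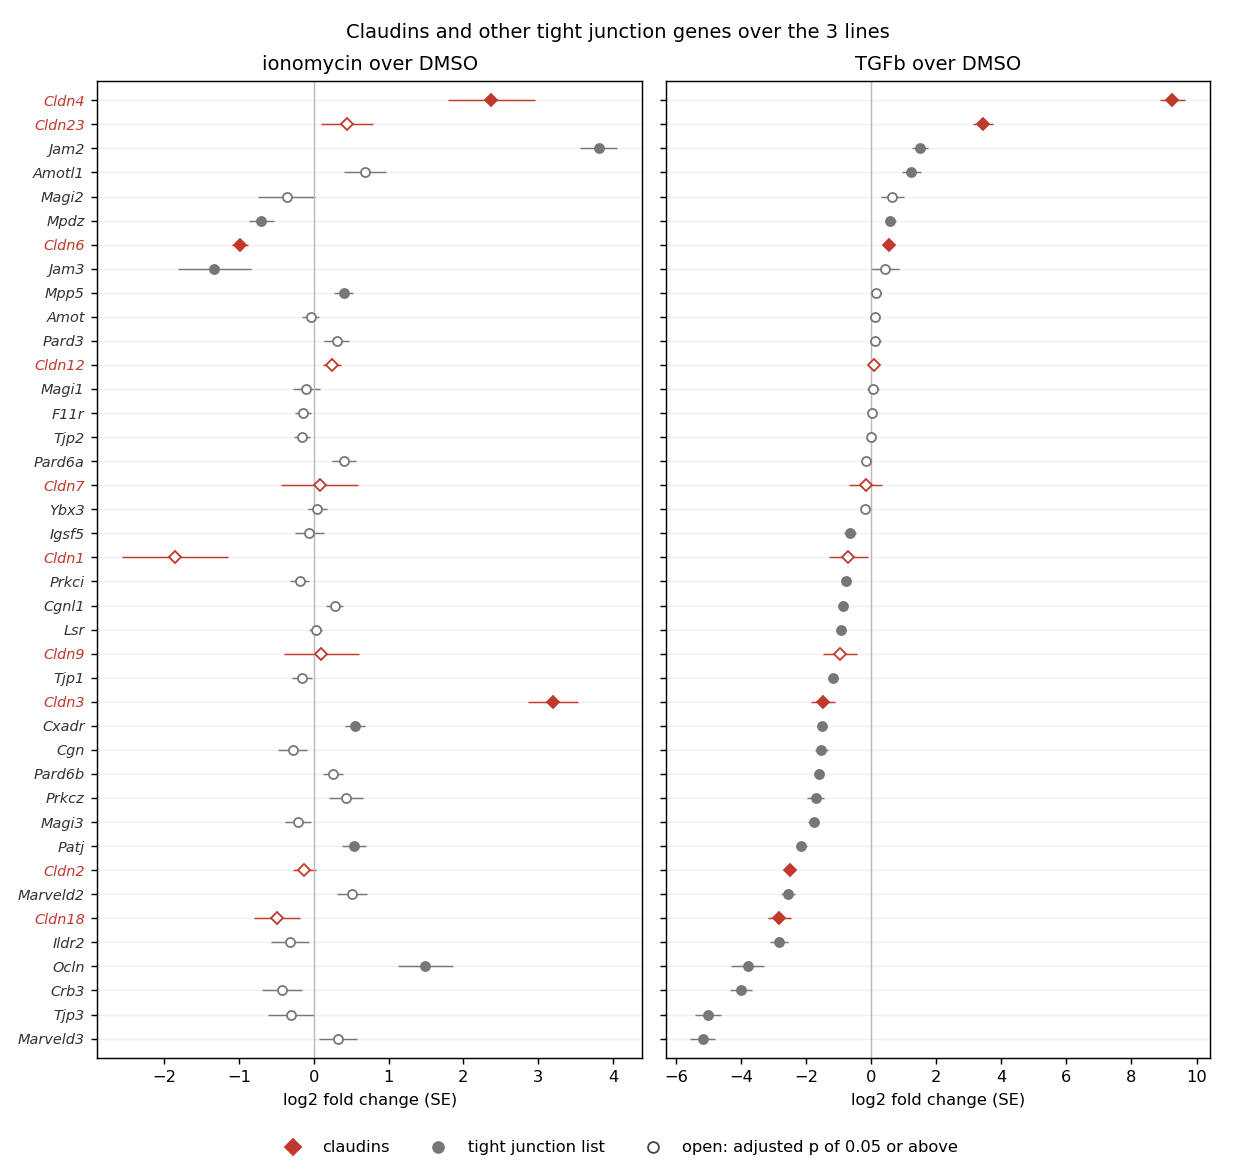
Log2 fold change with its SE over the 3 lines for the 10 claudins (red diamonds) and the 30 tested genes of the tight junction list (grey circles), ionomycin over DMSO on the left and TGFb over DMSO on the right, ordered by the TGFb value. Filled symbols passed an adjusted p under 0.05. Cldn4 at 9.26 and Cldn23 at 3.44 head the TGFb panel and Marveld3 at -5.19 ends it.

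The genes outside the junction lists whose log2 CPM followed each claudin most closely over the 9 group means were listed as a description. Those groups share lines and treatments, and the first gene named for each claudin had the highest r among the tested genes outside those lists. For Cldn4 it was Tln2, which encodes talin-2, with r of 0.992 (Spearman rho 0.967). For Cldn6 it was the keratin Krt20 (r 0.994, rho 1), for Cldn2 it was Cc2d2a, a gene of the ciliary transition zone (r 0.993, rho 0.983), and for Cldn3 it was the mannosidase gene Man2b2 (r 0.978, rho 0.933). Cldn23 was closest to Rem2 (r 0.987), Cldn12 to E2f6 (r 0.978), and Cldn18 to Smarcd2 and to Napsa, which encodes the lung and kidney protease napsin A (r 0.973 each).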

How the data were processed

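RNA was sequenced from 3 lines under 3 treatments, with 18 libraries in all. The deposited values are whole-number read counts for each gene symbol, not normalised by the authors. Per the submitters' processing notes CASAVA, Trimmomatic 0.32, STAR and featureCounts were used with mm10. For strand mode and annotation release the entry is "not given in the sources used here". Of 24527 table entries 5059 had 0 counts in all libraries. Library totals ran from 17591005 to 37894692 counts, and 3 counts, the limit that 0 counts allow, amount to 0.0757 to 0.174 CPM by library on the TMM-scaled totals. These limits and the counting intervals cover counting error alone, because PCR copies cannot be told from separate molecules here.

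The analysis used edgeR 4.0.16 (R 4.3.3). Its filterByExpr over the 9 groups kept 13827 genes, TMM factors scaled the libraries, and robust quasi-likelihood F tests ran across all kept genes with Benjamini-Hochberg adjustment and a threshold of 0.05. Treatments were compared with the line as a covariate. Effects within lines, their line dependence and line differences were contrasts of the 9 group means. The SE is the size of the log2 fold change divided by the square root of F. It comes from a test against 0 and understates the error of a large fold where a group held few counts. Where a group held 1 to 3 counts, the ratio has an exact 95% interval. The steps were tested on simulated data.

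Alternatives were RLE factors, plain library totals, keeping all genes, DESeq2 1.42.0, limma-voom 3.58.1, a transcript-length offset, leaving the line out of the model, a separate mean for each group, duplicates added together, fewer libraries in the fit, and leaving out each line, each library or the 4 libraries rich in short transcripts. Exon lengths came from GENCODE M21 and promoters from RefSeq (GRCm38.p6).

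The claudins and lists were chosen with earlier results of these data known. From the tight junction list the text names, per comparison, up to 3 higher and 3 lower genes with the smallest adjusted p and the same sign in the 3 lines, plus Ocln, Tjp1 and F11r. Of the 3 genes most alike to each claudin, the text gives the first for 7 claudins, and for Cldn18 also the next.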

Additional observations from a re-analysis of the deposited data

Results flagged for a closer look

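The effect of ionomycin on Cldn18 was not equal in the 3 lines (joint test, adjusted p = 0.01769). Cldn18 was lower with ionomycin in PD454 and PD7591, and its value was positive in PD883 without passing the test. The call of the joint test was lost in 1 of the 18 fits that left out 1 library.

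The effect of TGFb on Cldn3 was not equal in the 3 lines (adjusted p = 0.02972), with the one call in PD883. The effect of TGFb on Cldn18 was not equal either (adjusted p = 0.04537), with a fall in each line that was largest in PD7591 and smallest in PD883. PD883 was the line with the most Cldn3 and Cldn18 with DMSO, and the part of that starting level in these differences was not tested.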

How the results depend on the processing

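Single libraries were not paired between groups, because the labels name no pairs and the groups share no library numbers. Treatments were instead compared within lines, with the line in the model. Claudins called in a treatment comparison kept their call and direction in 95 of 96 values for ionomycin against DMSO, 188 of 192 for TGFb against DMSO and 190 of 192 for ionomycin against TGFb, and none changed direction. The lost calls came without the line in the model and, for Cldn3 with TGFb, with duplicates summed or without PD883. Other causes were not tested. Low counts limit Cldn1, Cldn7 and Cldn9, and the ionomycin value of Cldn1 passed in 7 of 13 alternatives and in 3 of 18 fits that left out 1 library. Library totals moved the median of all genes to -0.117 for ionomycin against DMSO and -0.108 for ionomycin against TGFb. Genes called over all genes fell to 1858 (ionomycin) and 4646 (TGFb) with duplicates summed, against 4599 and 7015, and to 2152 for ionomycin without the line in the model.

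The count of claudins called for ionomycin against DMSO was 5 with a mean per group (adding Cldn12 and Cldn18) and 5 without PD883 (adding Cldn1 and Cldn18). For line dependence it was 2 with ionomycin under no low-count filter and 2 under DESeq2 (adding Cldn3), and 0 with TGFb under limma-voom. Leaving out 1 library gave 3 to 5 for ionomycin against DMSO, with 5 without DMSO PD883 library 8, and 2 to 4 within PD454, 2 to 4 within PD7591 and 2 to 5 within PD883 for ionomycin. It gave 0 to 2 for line dependence with ionomycin and 0 to 2 with TGFb. For ionomycin against DMSO, calls over all genes ran from 3803 to 4945 with 1 library left out, against 4599. Over the other settings they ran from 1858 to 5689. Such counts over all genes were not taken for the tests within lines, for line dependence or between lines.

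Values that were not called and changed sign are given as log2 fold changes. For ionomycin against DMSO, Cldn7 was -0.00095 with library totals, -0.13 with limma-voom, -0.20 with a mean per group, -0.039 with the libraries of the contrast alone and -0.83 without PD7591. Cldn18 was 0.0047 with limma-voom and 0.61 without the line in the model, Cldn9 -0.47 with a mean per group and -0.0063 with duplicates summed, and Cldn2 0.045 without PD454. For TGFb against DMSO, Cldn12 was -0.036 without the line in the model and -0.015 without PD7591, and F11r -0.039 without PD7591. For ionomycin against TGFb, Cldn1 was 0.20 with a mean per group and Cldn7 -0.76 without PD7591. With the length offset Cldn23 was 0.11 for ionomycin within PD454 and 0.071 for PD454 against PD883, and Cldn3 was -0.17 for PD454 against PD7591.

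With 1 library left out, Cldn7 ran from -0.18 to 0.345 for ionomycin against DMSO, -0.40 to 0.14 for TGFb against DMSO and -0.064 to 0.51 for ionomycin against TGFb, and Cldn9 from -0.30 to 0.30 for ionomycin. For ionomycin within lines, Cldn12 ran from -0.14 to 0.0296 and Cldn23 from -1.54 to 1.60 in PD7591, and Cldn2 from -0.29 to 0.033 in PD883. For TGFb, Cldn3 ran from -1.27 to 0.0905 in PD454 and -0.76 to 0.057 in PD7591. With DMSO, Cldn3 ran from -0.37 to 0.57 and Cldn18 from -0.0103 to 0.14 for PD454 against PD7591, and Cldn23 from -0.37 to 0.27 for PD454 against PD883.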

Other observations

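Of the other claudin genes 22 more symbols were in the table, and 11 of them had 0 counts in every library. Cldn20 had the most, with 136 counts in all and at most 25 in a library, followed by Cldn22 with 84 and Cldn15 with 60. The endothelial claudin gene Cldn5 had 9 counts over the 18 libraries, and the remaining ones with counts had between 1 and 13. None of these was compared between groups.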
